A study of Mus musculus with 40 samples.

Results

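The microRNAs (miRNAs) miR-142, miR-223, miR-150, miR-155 and miR-146 are small regulatory RNAs best known from white blood cells. 7 mature entries were taken by name from a mouse table of 1894 mature miRNA entries: mmu-miR-142a-3p, mmu-miR-142a-5p, mmu-miR-223-3p, mmu-miR-150-5p, mmu-miR-155-5p, mmu-miR-146a-5p and mmu-miR-146b-5p. No cut-off on measured values chose them, but earlier results of these data were known when they were named. They were followed through 40 libraries of 4 tissues: brown fat, liver, gastrocnemius muscle and hypothalamus. Each tissue gave 5 IP libraries, made from RNA pulled down on streptavidin after biotin was coupled to its thiolated uracils, and 5 input libraries, made from all small RNA.

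The animals were 10 male mice, 8 to 12 weeks old, on standard chow. They came from a cross of the reporter line Tg(CAG-GFP,-Uprt)985Cdoe/J with the Cre line Tg(Ucp1-cre)1Evdr/J, named UCP1;UPRT in the labels. Every mouse received 4-thiouracil (4TU) by intraperitoneal injection at 50 mg/kg, 4 times, every 48 h. UPRT, an enzyme that mammalian cells lack in active form, turns 4TU into a nucleotide that enters new RNA. In the reporter line Cre switches it on, and the Ucp1 promoter drives this Cre mainly in brown adipocytes. The labels do not give the genotype of single mice, so whether a group mixes genotypes is not known. They name no group without 4TU and none without Cre. So the IP libraries have no unlabelled background to be set against. By their library names all inputs belong to Pool1 and all IPs to Pool2, so pool and library type cannot be told apart.

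The miR-142 hairpin is made in blood cells of all lineages, and both of its arms are loaded into Argonaute. miR-223 marks granulocytes and monocytes. miR-150 is abundant in mature B and T cells, where it represses Myb. miR-155 is cut from the transcript of its host gene when lymphocytes or macrophages are activated. miR-146a and miR-146b are induced by NF-kappaB and repress the adaptors Traf6 and Irak1. miR-142, miR-223 and miR-150 therefore serve as marks of leukocytes in whole tissue. Adipocytes, hepatocytes, myofibres and neurons hold little of miR-142 or miR-223, while miR-146 is found in many cell types.

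The mature sequences are shown because 2 of the families share bases that bear on how reads are counted. They are RefSeq's, on build GRCm38.p6, written 5′ to 3′ with the seed (bases 2 to 8) in capitals. A sequence was matched for 6 of the 7 entries.
mmu-miR-142a-3p: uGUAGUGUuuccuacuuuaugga
mmu-miR-142a-5p: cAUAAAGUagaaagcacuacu
mmu-miR-223-3p: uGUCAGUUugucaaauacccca
mmu-miR-155-5p: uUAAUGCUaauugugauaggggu
mmu-miR-146a-5p: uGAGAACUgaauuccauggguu
mmu-miR-146b-5p: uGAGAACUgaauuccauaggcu
miR-146a-5p and miR-146b-5p share the seed GAGAACU and are identical at 20 of 22 positions. Counted from the 5′ end, miR-146b-5p differs from miR-146a-5p by G18A and U21C. The other 4 sequences each have a seed of their own. 4TU can enter only at uracils, and these sequences hold between 4 (miR-142a-5p) and 11 (miR-142a-3p) of them.

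Both miR-142 arms lie on the plus strand of chromosome 11, miR-142a-5p at chr11:87756867-87756887 and miR-142a-3p at chr11:87756903-87756925. There Mir142 sits in an intron of the long noncoding gene Mir142hg. The entry miR-142b is annotated on the opposite strand and overlaps miR-142a-3p by 20 bases. The counts of the 2 entries were equal within 0.25 counts in all 40 libraries, so reads over this arm cannot be told apart by strand. miR-142a-3p may hold only part of the reads of its arm, and its levels are therefore uncertain. miR-223-3p lies at chrX:96242884-96242905, in an exon of F630028O10Rik. miR-155-5p lies at chr16:84714143-84714165, in an exon of the noncoding gene Mir155hg. miR-146a-5p lies at chr11:43374435-43374456 on the minus strand, and miR-146b-5p at chr19:46342790-46342811, in an intron of the protein-coding gene Mfsd13a.

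Levels are given in CPM, an entry's expected count per 1000000 counts of its library. Totals ran from 11928 to 921297 counts in the IPs (median 222657) and from 153036 to 5562487 in the inputs (median 1284130.5). So 1 count weighs more in an IP. The leading marker miRNAs fitted the labelled tissues (miR-122-5p in liver, miR-1a-3p in muscle, miR-124-3p in hypothalamus). In brown fat the 3 brown adipocyte entries summed to 78892 to 173495 CPM in the IPs and 94472 to 132331 CPM in the inputs. The brown fat libraries also held striated muscle miRNAs, at 50613 to 256642 CPM in the IPs and 69008 to 293083 CPM in the inputs. On average the striated muscle sum was the larger, at 179057 against 127417 CPM in the IPs and 158664 against 114076 CPM in the inputs. Hypothalamus input 4 held 188869 CPM of striated muscle miRNAs, against a median of 2062 CPM over the 5 hypothalamus inputs, and only 153036 counts. Liver IP 4 held only 11928 counts. Tests that rest on either were also run without it.

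In brown fat, miR-142 and miR-223 were much lower in the pulled-down RNA than in total small RNA, while miR-150 and miR-155 were not called different. miR-142a-5p stood at 14.7, 19.5, 13.2, 3.18 and 28.6 CPM in the brown fat IPs, against 89.8, 100.5, 110.2, 297.3 and 467.5 CPM in the brown fat inputs. miR-223-3p stood at 3.06, 4.18, 0, 2.37 and 6.43 CPM in the IPs, against 55.8, 49.2, 39.6, 81.8 and 197.5 CPM in the inputs. In both cases every IP lay under every input. miR-142a-5p was lower in the IP by a log2 fold change of -2.44 ± 0.46 (SE, n = 5 each, edgeR adjusted p = 0.0001). miR-223-3p was lower by -3.62 ± 0.60 (adjusted p = 1.84e-05). miR-142a-3p was all but missing from the brown fat IPs, with 0.94, 0, 2.47, 0 and 1.61 CPM, against 29.5, 44.4, 62.3, 211.2 and 305.0 CPM in the inputs. That is 2.27 counts in all 5 IPs together, against 906.13 counts in the inputs. Scaled by TMM, the summed count was 59.2-fold lower in the IPs (95% counting interval 16.3 to 490). The fit called it lower (adjusted p = 8.1e-05). Like miR-223-3p, it passed the filter on low counts through the inputs alone, which favours a call in this direction. The p-values of these 2 entries are therefore not read as support. Without a filter both were called lower too (edgeR adjusted p = 1.51e-16 for miR-142a-3p and 1.24e-13 for miR-223-3p). By total counts alone it was 128-fold lower. Counting intervals here cover counting error only.

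**Figure D1:**
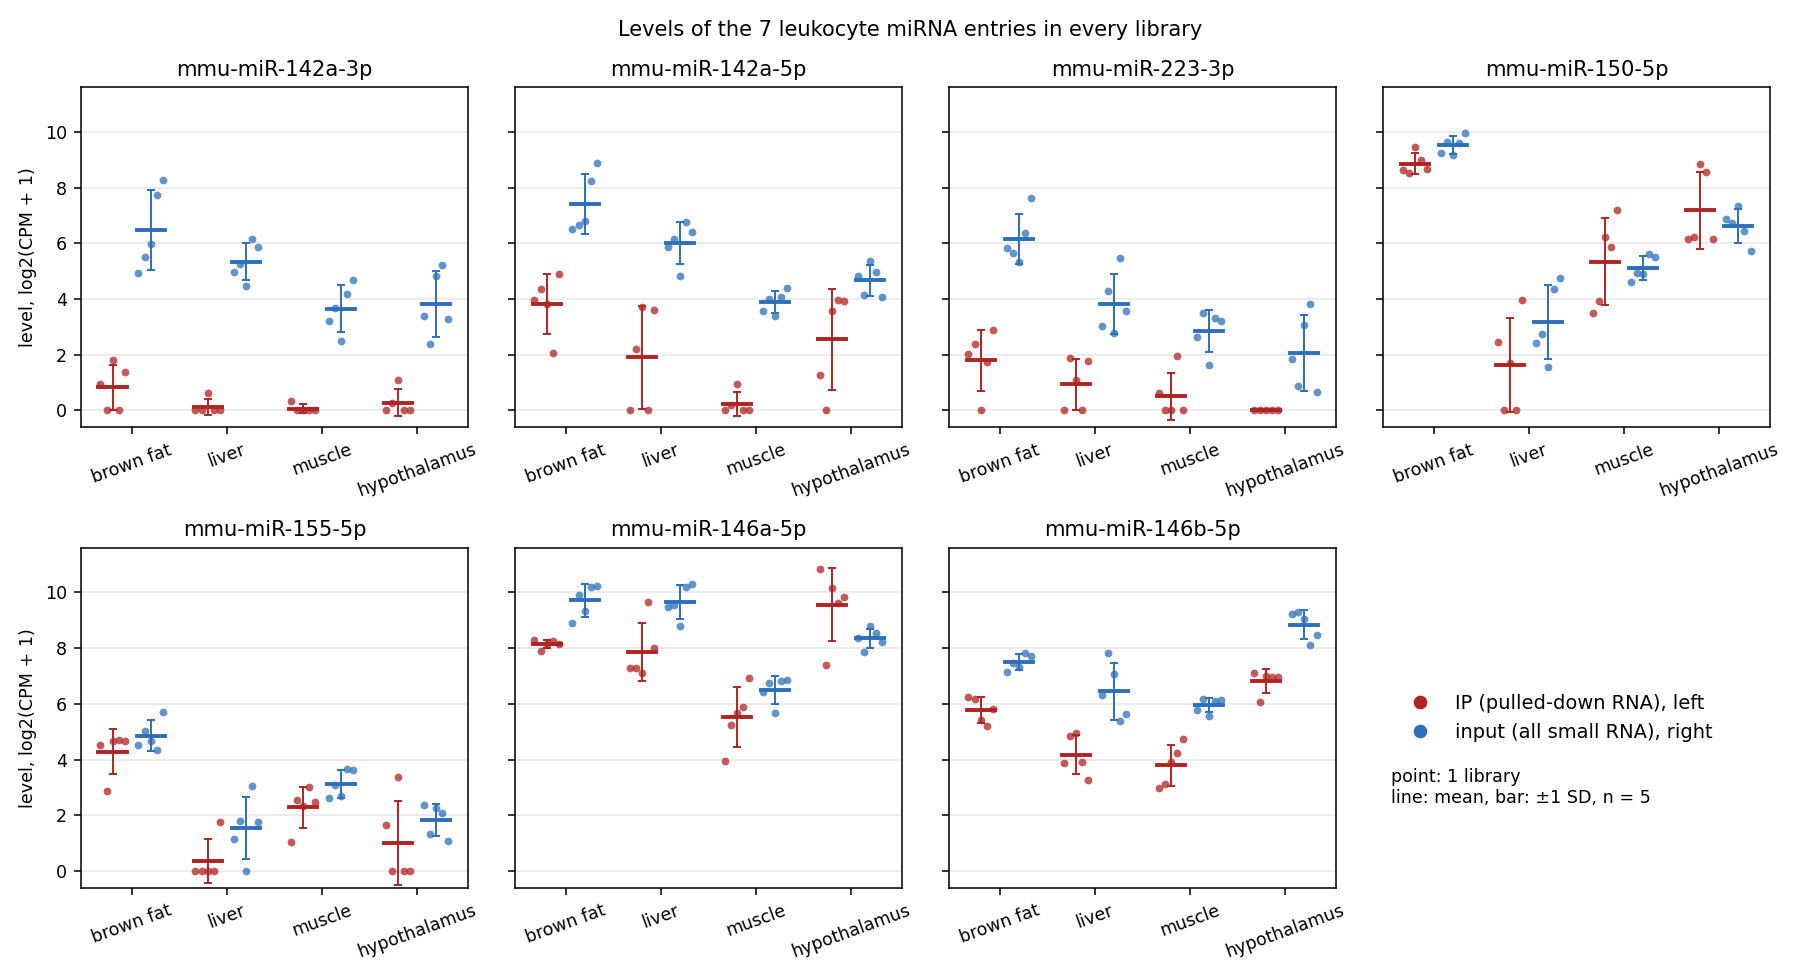
Level of each of the 7 entries as log2(CPM + 1) on the vertical axis, by tissue, with the 5 IP libraries in red on the left and the 5 input libraries in blue on the right (line: mean; bar: ±1 SD). The miR-142 and miR-223 points of the brown fat IPs lie under all brown fat inputs, while miR-150-5p in muscle and miR-146a-5p in hypothalamus overlap.

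In the same libraries miR-150-5p and miR-155-5p were not called. miR-150-5p was the most abundant of the 7 entries in the brown fat IPs. It stood at 396.7, 368.6, 708.0, 503.3 and 401.5 CPM there, against 611.3, 795.0, 569.8, 766.1 and 1001 CPM in the inputs. The groups overlapped, and the difference was 0.52 ± 0.29 (log2, SE, adjusted p = 0.102). Its sign depends on scaling, since by total counts it was -0.66 (adjusted p = 0.0371). miR-155-5p stood at 22.2, 6.27, 24.7, 24.9 and 24.3 CPM in the IPs, against 22.3, 31.99, 24.4, 19.3 and 51.7 CPM in the inputs. It too overlapped, at 0.70 ± 0.36 (adjusted p = 0.077), and by total counts at -0.48. Without brown fat IP 2, miR-150-5p was called higher at 0.73 (adjusted p = 0.0166) and miR-155-5p at 1.00 (adjusted p = 0.00962). Without brown fat input 5, miR-155-5p was called higher at 0.84 (adjusted p = 0.0371).

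The miR-146 pair in brown fat had lower CPM in every IP than in any input but no call with TMM. miR-146a-5p ran from 235.0 to 311.2 CPM in the IPs (median 285.2), against 472.0 to 1187 CPM in the inputs (median 971.3). miR-146b-5p ran from 35.8 to 75.9 CPM in the IPs, against 139.2 to 228.3 CPM in the inputs. Their log2 fold changes were -0.46 ± 0.28 (adjusted p = 0.127) and -0.54 ± 0.28 (adjusted p = 0.077). Scaled by RLE they were -0.79 and -0.87, and both were called lower (adjusted p = 0.00942 and 0.00396). By total counts they were -1.65 and -1.67. Without brown fat IP 1, miR-146b-5p was called lower at -0.76 (adjusted p = 0.0229).

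Of the 7 entries, 0 were called higher and 3 lower in the brown fat IPs, with 0 higher at an unadjusted p under 0.05 and 0 higher by DESeq2, which called 5 lower. Of the 3 called lower with TMM, miR-142a-3p and miR-223-3p passed the filter through their inputs alone. Calls were common among all entries: of the 305 tested, 78.4% were called, 35.4% higher and 43.0% lower. In CPM, 5 of the 7 entries had every IP under every input, as did 51.8% of the entries tested, and 0 of the 7 had every IP above every input, beside 13.1%. The median log2 fold change was -0.54 over the 7 entries and -0.34 over all tested. All-entry calls ran 108 higher and 131 lower with TMM, against 54 higher and 173 lower by total counts. The entries took very different places among all those tested: miR-223-3p lay above only 14.8% of the tested entries and miR-142a-5p above 22.6%, while miR-150-5p lay above 59.7% and miR-155-5p above 63.0%.

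**Figure D2:**
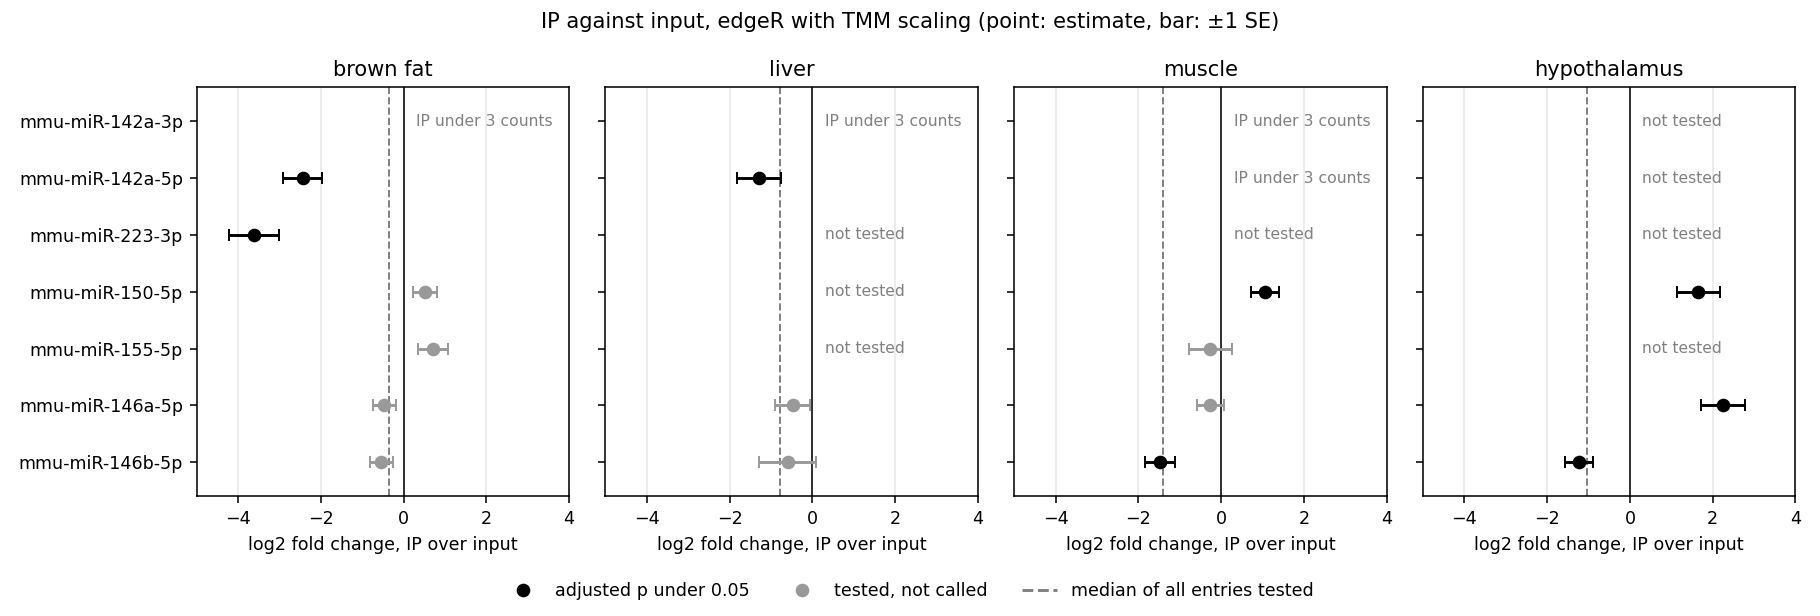
Log2 fold change of IP over input with TMM scaling for each entry (vertical axis) in each tissue, with ±1 SE; black points were called and grey points were not, and the dashed line is the median of all entries tested. miR-142a-5p and miR-223-3p lie left of the median in brown fat, and miR-150-5p lies right of it in brown fat, muscle and hypothalamus; entries with under 3 IP counts have no point, since such a fold depends on the prior count.

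Marks of other cell types were set beside these values. Of the 3 red blood cell entries 1 was tested, and it was called lower in the brown fat IPs. Both endothelial entries were called lower (median -3.48), as were both neuronal entries (median -4.49). Of the 2 hepatocyte entries, 1 was called higher and 1 lower, and of the 3 striated muscle and the 3 brown adipocyte entries likewise 1 was called in each direction. Their medians were 1.11 (hepatocyte), 1.28 (striated muscle) and -0.85 (brown adipocyte), beside -0.34 over all entries. The red blood cell miRNAs (miR-451a and both arms of miR-144, 3 entries) summed to between 0.869 and 4.29 CPM in the brown fat IPs, against 64.0 to 814 CPM in the inputs. The endothelial entries (both arms of miR-126a) summed to 1548 to 3030 CPM in the IPs, against 23840 to 57145 CPM in the inputs. miR-451a was lower by -4.98 and miR-126a-3p by -3.25 (log2, adjusted p = 1.19e-05 and 4.65e-09). The part of blood and vessel content in the miR-142 and miR-223 values was not tested. In the input levels, which come from whole tissue, fewer cells of a type and less RNA per cell cannot be told apart.

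The brown fat inputs also differed among themselves. For miR-142a-3p, inputs 4 and 5 held 211.2 and 305.0 CPM, while the other three held 62.3 CPM or less. For miR-223-3p, input 5 held 197.5 CPM and the next highest 81.8 CPM. Input 5 was highest for 6 of these entries, all but miR-146b-5p, and it was also highest for miR-451a, at 579.2 CPM against 127.7 CPM in the next. Input 4 was not high for miR-451a, at 112.6 CPM. miR-150-5p, in contrast, varied little, from 569.8 to 1001 CPM over the 5 inputs.

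**Figure D3:**
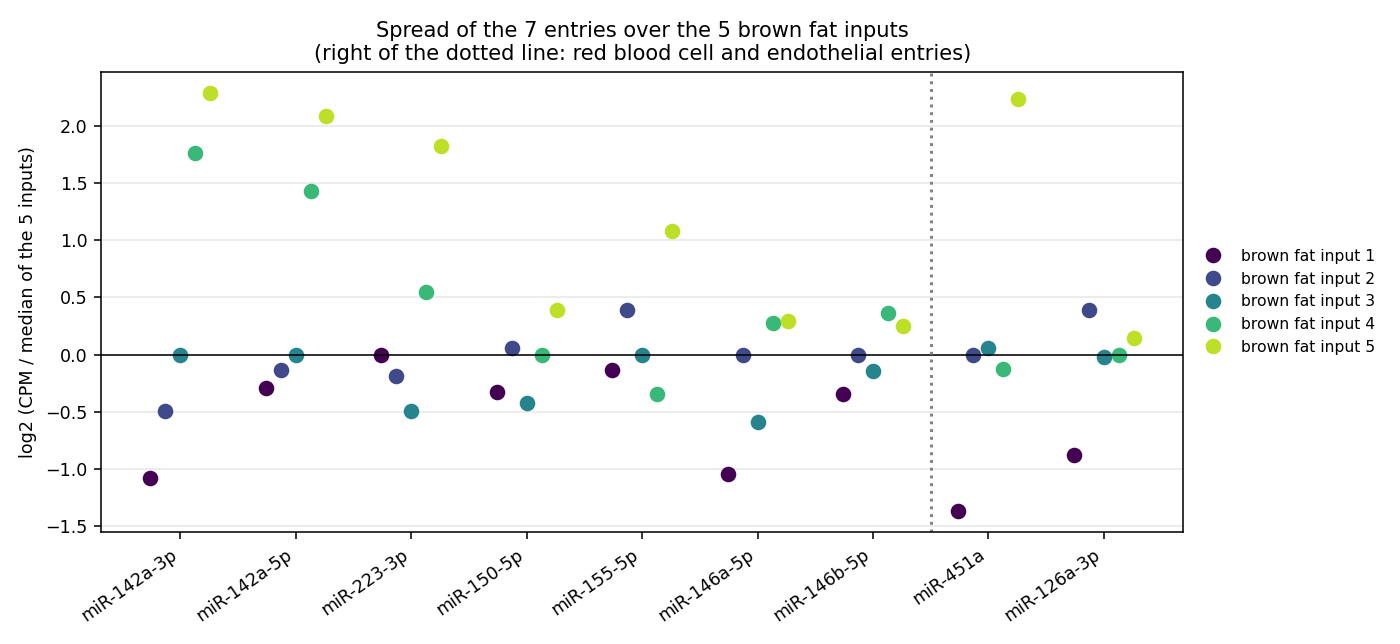
Each point is 1 brown fat input, as log2 of its CPM over the median of the 5 inputs (vertical axis), for the 7 entries and for miR-451a (red blood cells) and miR-126a-3p (endothelium). Inputs 4 and 5 stand above the other three for both arms of miR-142a, and input 5 stands highest for miR-223-3p and miR-451a.

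In liver, the miR-142 arms were again scarce in the pulled-down RNA. miR-142a-3p had 0.25 counts over the 5 liver IPs, against 190.24 counts in the inputs, where it stood at 30.01, 37.4, 21.3, 70.0 and 57.1 CPM. That is at least 3.89-fold lower in the IPs with TMM, at a limit of 3 counts over the group (adjusted p of the fit 5.67e-05, and 0.000549 without liver IP 4). With miR-142b added it is at least 7.77-fold lower (adjusted p of the fit 6.96e-07). miR-142a-5p stood at 0, 3.57, 12.2, 0 and 11.2 CPM in the IPs, against 57.9, 69.7, 27.0, 107.7 and 84.6 CPM in the inputs. It was lower by -1.29 ± 0.54 (adjusted p = 0.0266), but that call ended with the mouse as a block (-1.10, adjusted p = 0.0556). It also ended without liver IP 1 (-1.02, adjusted p = 0.0987) and without liver IP 4 (-1.20, adjusted p = 0.0507). Leaving out any 1 of inputs 1 to 5 gave values from -2.40 to -2.04, all called. Both arms passed the filter on low counts through their inputs alone, which favours a call in this direction. Their p-values are therefore not read as support. Without a filter both were called lower too (edgeR adjusted p = 9.08e-07 for miR-142a-3p and 0.00106 for miR-142a-5p).

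The remaining liver entries were low or not called. miR-223-3p gave 1.5 counts over the 5 IPs, against 72.71 over the inputs, 2.24-fold lower with TMM but with a counting interval of 0.598 to 18.8. miR-150-5p gave 4.5 counts over the IPs, against 47.79 over the inputs, and miR-155-5p gave 0.5 against 11.0. These 3 fell under the filter on low counts and were not tested. miR-146a-5p stood at 155.0, 154.7, 136.4, 796.4 and 255.5 CPM in the liver IPs, against 707.7, 744.2, 445.0, 1164 and 1251 CPM in the inputs (log2 -0.47 ± 0.43, adjusted p = 0.307). The value of 796.4 CPM comes from 9.50 counts in the shallow liver IP 4. Without that library the change was -0.49, again not called (adjusted p = 0.186). With RLE scaling miR-146a-5p was called lower at -1.29 (adjusted p = 0.00097), and without any 1 of the 5 inputs at between -1.24 and -0.98. miR-146b-5p was -0.60 ± 0.70 (adjusted p = 0.441; -0.50 and adjusted p = 0.569 without liver IP 4), and it was called lower without liver input 4 (-1.72, adjusted p = 0.0264) or input 5 (-1.73, adjusted p = 0.0178). Of the 4 entries tested, 0 were called higher and 2 lower, beside 75.5% called of the 200 entries tested, 28.5% higher and 47.0% lower. The 2 called lower, the miR-142 arms, passed the filter through their inputs alone. None of the 4 was higher at an unadjusted p under 0.05, and DESeq2 called 0 higher and all 4 lower. All-entry calls ran 57 higher and 94 lower with TMM, 41 and 124 with RLE, and 27 and 134 by total counts. In CPM, 3 of the 4 entries tested had every IP under every input, as did 60.0% of all entries tested, and 0 had every IP above, beside 11.0%.

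In muscle, both miR-142 arms were again nearly absent from the IPs. miR-142a-5p stood at 0, 0.15, 0.95, 0 and 0 CPM in the muscle IPs, against 10.8, 14.95, 9.59, 15.8 and 20.05 CPM in the inputs. In counts this is 0.44 against 295.92, at least 5.53-fold lower with TMM and 11.5-fold by total counts (adjusted p of the fit 3.05e-06). miR-142a-3p gave 0.25 counts over the IPs, against 276.58 over the inputs, at least 5.18-fold lower (adjusted p of the fit 0.00172). Both arms passed the filter on low counts through their inputs alone, which favours a call in this direction. Their p-values are therefore not read as support. Without a filter both were called lower too (edgeR adjusted p = 5.87e-10 for miR-142a-3p and 1.26e-10 for miR-142a-5p). miR-223-3p, with 1.5 against 145.3 counts, was 4.07-fold lower with TMM (counting interval 1.11 to 33.9) and was too low for the fit.

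miR-150-5p went the other way in muscle. It stood at 10.3, 14.1, 73.4, 57.3 and 145.5 CPM in the muscle IPs, against 23.3, 29.8, 28.5, 47.9 and 45.0 CPM in the inputs. The groups overlapped, since IPs 1 and 2 lay under every input. With TMM it was called higher at 1.07 ± 0.34 (adjusted p = 0.0038), but not with RLE (0.56, adjusted p = 0.172), by total counts (0.53, adjusted p = 0.382), without a filter (0.26, adjusted p = 0.576) or by DESeq2 (0.58, adjusted p = 0.165). It was also not called without muscle IP 3 (0.65, adjusted p = 0.0756).

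miR-146b-5p was lower in the muscle IPs, at 6.82, 7.82, 13.9, 17.7 and 25.7 CPM, against 54.4, 71.9, 46.7, 67.3 and 69.5 CPM in the inputs. The groups did not overlap, and the change was -1.47 ± 0.36 (adjusted p = 0.000244). This lies near the median of all entries in muscle, -1.41. miR-146a-5p was not called (-0.26 ± 0.33, adjusted p = 0.447; RLE -0.78, adjusted p = 0.0276), nor was miR-155-5p (-0.26 ± 0.53, adjusted p = 0.648; total counts -1.30, adjusted p = 0.0336). The miR-146a-5p value turned to 0.023 without muscle input 1 and to 0.044 without muscle input 2. Of the 6 entries tested, 1 was called higher and 3 lower, beside 85.1% called of the 268 tested, 28.4% higher and 56.7% lower. Of the 3 called lower, the miR-142 arms passed the filter through their inputs alone. Without any 1 of muscle inputs 1, 2, 4 and 5, only 2 of the entries were called, since the miR-142 arms then fell under the filter. In the fits without 1 library that tested them, miR-142a-3p was called in 5 of 5 and miR-142a-5p in 6 of 6. In CPM, 3 of the 7 entries had every IP under every input, as did 55.6% of the entries tested, and 0 had every IP above, beside 17.9%.

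In hypothalamus, miR-146a-5p and miR-150-5p were higher and miR-146b-5p was lower in the IPs. miR-146a-5p stood at 1855, 166.7, 1130, 784.3 and 906.9 CPM in the hypothalamus IPs, against 329.8, 229.8, 440.7, 370.0 and 296.6 CPM in the inputs. IP 2 lay under every input and the other four above every one. The change was 2.24 ± 0.54 (adjusted p = 0.00158), and 2.44 without hypothalamus input 4 (adjusted p = 0.00157). miR-150-5p stood at 69.7, 74.7, 461.8, 372.3 and 69.4 CPM in the IPs, against 117.3, 106.3, 159.1, 84.9 and 51.6 CPM in the inputs. IPs 3 and 4 were high and the other three lay within the range of the inputs. It was called higher at 1.65 ± 0.52 (adjusted p = 0.0102), and at 1.70 without input 4. The value was 1.05 without IP 3 (adjusted p = 0.0406), and it was not called by total counts (0.99, adjusted p = 0.143) or without a filter (1.02, adjusted p = 0.121).

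miR-146b-5p stood at 136.3, 65.5, 128.5, 124.7 and 124.4 CPM in the hypothalamus IPs, against 604.5, 633.7, 531.0, 278.0 and 354.6 CPM in the inputs. The groups did not overlap, and the change was -1.23 ± 0.34 (adjusted p = 0.00451; -1.32 without input 4). This lies near the median of all entries in hypothalamus, -1.04. All 3 entries tested were called, 2 higher and 1 lower, beside 74.4% called of the 273 tested, 28.2% higher and 46.2% lower. All-entry calls ran 77 higher and 126 lower with TMM, against 53 and 148 by total counts. The other 4 entries were too low for the fit. miR-142a-5p gave 6.66 counts over the IPs, against 197.6 over the inputs (1.48-fold lower with TMM, counting interval 0.706 to 3.74). miR-142a-3p gave 0.27 against 105.63 counts, at least 1.85-fold lower. miR-223-3p was at 0 in all 5 IPs, which allows up to 3.65 CPM over the group, beside an input mean of 4.88 ± 5.30 CPM (SD, n = 5), so no difference was detectable at this depth. miR-155-5p gave 2.5 against 18.75 counts, too few to place the IPs above or under the inputs (the interval of its TMM fold reduction ran from 0.12 to 4.41). In CPM, 1 of the 3 entries tested, miR-146b-5p, had every IP under every input, as did 45.1% of all entries tested, and 0 had every IP above, beside 16.1%. The untested miR-142a-3p, miR-142a-5p and miR-223-3p also had every IP under every input, but on too few IP counts for this to be read.

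The ratio of miR-146b-5p to miR-146a-5p needs no scaling between libraries, and it compares 2 miRNAs with the same seed. In hypothalamus it was 0.0746, 0.410, 0.116, 0.167 and 0.139 in the IPs, against 1.83, 2.75, 1.20, 0.753 and 1.20 in the inputs. Every IP lay under every input. The mean log2 ratio was -2.71 ± 0.91 in the IPs and 0.49 ± 0.71 in the inputs (SD, n = 5 each), a difference of -3.20 (exact two-sided permutation p = 0.00794, adjusted over the 4 tissues 0.0159). That p is the smallest 5 against 5 libraries can give. The permutation took libraries as unpaired, although the equally numbered IP and input share a mouse in hypothalamus and muscle. No paired test of this ratio was run. Without hypothalamus input 4 the difference was -3.43.

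The same direction was found in muscle. There the ratio was 0.492, 0.229, 0.296, 0.323 and 0.244 in the IPs, against 0.642, 0.668, 0.943, 0.602 and 0.606 in the inputs. Again no IP reached any input. The difference was -1.16 in log2 (exact permutation p = 0.00794, adjusted 0.0159), from IP counts of 2.83 to 6.28 for miR-146b-5p in each library. In brown fat the ratio ran from 0.126 to 0.307 in the IPs and from 0.178 to 0.295 in the inputs, a difference of -0.14 (exact permutation p = 0.627, adjusted 0.836). In liver the difference was 0.17 (exact permutation p = 0.921, adjusted 0.921, 4 IPs against 5 inputs). It turned to -0.23 (exact permutation p = 0.771) on the 4 mice with both libraries, that is without the input of mouse 9. Whether the tissues differ in this change was not tested.

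**Figure D4:**
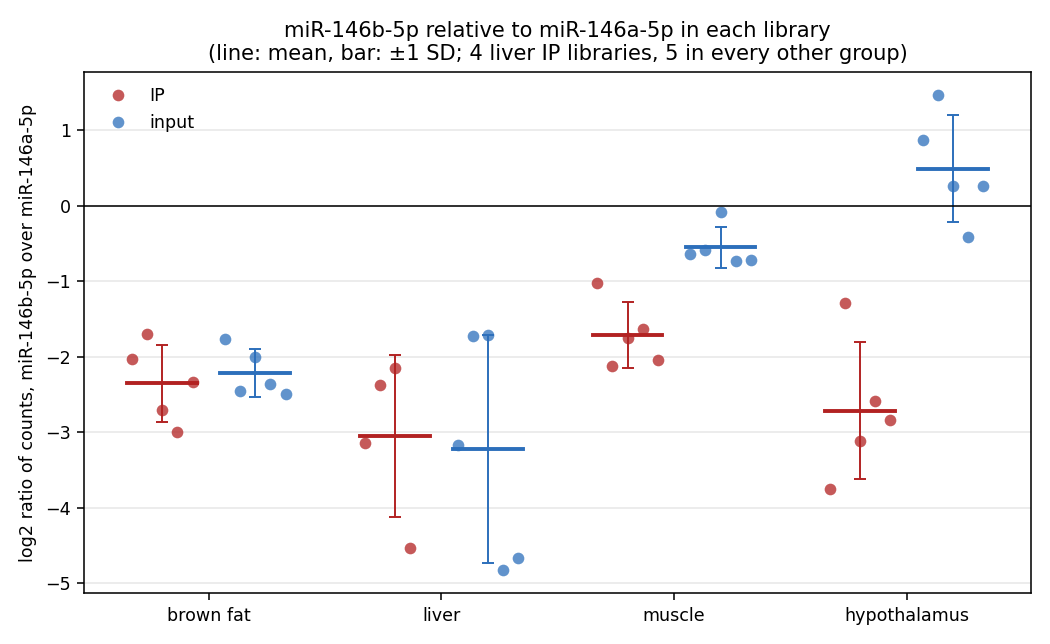
Log2 ratio of miR-146b-5p to miR-146a-5p counts in each library (vertical axis), by tissue, with the IPs in red on the left and the inputs in blue on the right (line: mean; bar: ±1 SD). In hypothalamus and muscle every IP point lies under every input point, while in brown fat and liver the groups overlap.

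In liver the ratio differed more between mice than between IP and input, a pattern singled out after the values were seen. The liver IPs gave 0.114 in mouse 3, 0.192 in mouse 4, 0.226 in mouse 5 and 0.0431 in mouse 10, against liver input ratios of 0.111 in mouse 3, 0.302 in mouse 4, 0.304 in mouse 5, 0.0355 in mouse 9 and 0.0393 in mouse 10. The order of the 4 mice with both libraries was the same in IP and input. That order rests on few counts, since these IPs held 1.5, 5.17, 13.27 and 1.81 counts of miR-146b-5p (mice 3, 4, 5 and 10). The input ratios of mice 4 and 5 were nearly equal. Whether the ratio is a lasting trait of a mouse was not tested. The IP of mouse 9 held 0.17 counts of miR-146b-5p and 9.50 of miR-146a-5p, under the minimum of 10 counts. The liver inputs of mice 9 and 10 had the lowest miR-146b-5p, 40.6 and 48.6 CPM against 78.3 to 224.6 CPM in the other three. They had the highest miR-146a-5p, at 1164 and 1251 CPM. miR-150-5p was highest there too, at 19.3 and 25.8 CPM against 1.96 to 5.75 CPM, as was miR-142a-3p, at 70.0 and 57.1 CPM against 21.3 to 37.4 CPM. In other tissues mouse 9 had the second lowest ratio of the 5 muscle IPs (0.244), muscle inputs (0.606) and hypothalamus inputs (1.20), and the middle one of the hypothalamus IPs (0.139). Mouse 10 had the middle ratio of the brown fat IPs (0.198).

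**Figure D5:**
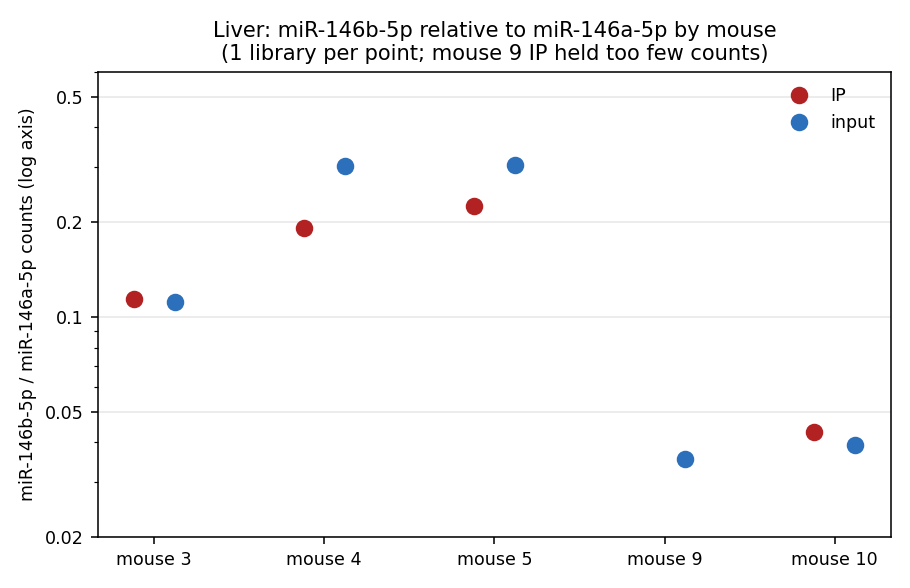
Ratio of miR-146b-5p to miR-146a-5p counts (vertical log axis) in the liver libraries of each mouse, IP in red on the left and input in blue on the right, 1 library per point. Mice 9 and 10 lie under 0.05, and mouse 3, 4 and 5 lie between 0.1 and 0.31. The IP points rest on 1.5 to 13.27 counts of miR-146b-5p.

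The arms of one hairpin also differed in the pull-down. Over the brown fat IPs miR-142a-5p had 34.67 counts and miR-142a-3p 2.27, a ratio of 15.3, against 1492.8 and 906.13 counts and a ratio of 1.65 in the inputs. With miR-142b added to the 3p arm the ratios were 7.64 in the IPs and 0.824 in the inputs. Too few IP libraries reached 10 counts over both arms for a test. For miR-223, too, the 5p arm held a larger share of the hairpin's counts in the brown fat IPs than in the inputs. miR-223-5p, the passenger arm, was not called in brown fat (0.50 ± 0.40, adjusted p = 0.241; -0.63 by total counts, adjusted p = 0.208). It stood at 14.4, 20.9, 11.5, 7.12 and 19.3 CPM in the brown fat IPs, against 18.1, 36.6, 8.18, 38.996 and 20.6 CPM in the inputs. So the passenger arm exceeded miR-223-3p in every brown fat IP and lay under it in every input. In single IPs this order rests on few counts, since miR-223-3p held 0 to 3.0 counts in each and 7.0 in all. The other arms of miR-150, miR-155, miR-146a and miR-146b were too low to be tested in any IP comparison.

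A further 12 miRNAs with known roles in leukocytes were followed in the same fits: both arms of miR-342 and miR-511, the 5p arms of miR-181a to miR-181d, and miR-21a-5p, miR-147-3p, miR-132-3p and miR-212-3p. Several of them are also abundant in other cell types. In brown fat, 8 were tested, 2 called higher and 5 lower, beside 78.4% called of all entries (median -1.57, all entries -0.34). In liver it was 2 tested, 0 higher and 2 lower, beside 75.5% called (median -2.20, all entries -0.78). In muscle it was 6 tested, 2 higher and 3 lower, beside 85.1% called (median -0.92, all entries -1.41). In hypothalamus it was 8 tested, 1 higher and 3 lower, beside 74.4% called (median -0.69, all entries -1.04). miR-21a-5p, a miRNA of inflamed and growing tissue, was lower in the IPs of all 4 tissues under each scaling, by -2.24 in brown fat, -2.78 in liver, -4.09 in muscle and -5.76 in hypothalamus with TMM. In hypothalamus it averaged 137 ± 96.2 CPM in the IPs and 11437 ± 3721 CPM in the inputs (SD, n = 5 each). miR-181a-5p, which tunes T cell receptor signalling, was lower in all 4 as well, by between -1.90 and -1.37. That range includes the median of all entries in muscle, -1.41. miR-342-5p went the other way and was called higher in brown fat, muscle and hypothalamus, as given in the last section.

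Base content was set beside these changes as a description. Across the 266 tested brown fat entries with a known sequence, the Spearman correlation of the IP log2 fold change was 0.053 with the number of uracils, -0.458 with adenines and 0.36 with guanines. Over the 4 tissues it ran from -0.038 to 0.151 for uracils, from -0.516 to -0.437 for adenines and from 0.296 to 0.36 for guanines. These are correlations across miRNAs that share libraries and families, and miRNAs are not independent replicates. The change did not rise or fall steadily with uracil number. Its median was lowest at 5 to 7 uracils in every tissue. For 0 to 4, 5 to 7 and 8 or more uracils, brown fat medians were 0.419, -1.044 and 0.614. The same classes gave -1.025, -1.275 and -0.032 for liver and -0.977, -2.219 and -0.29 for muscle. For hypothalamus they gave 0.837, -1.764 and -0.785. Differences between these classes were not tested. miR-142a-5p, with 4 uracils and 10 adenines, and miR-142a-3p, with 11 uracils and 4 adenines, were both low in the IPs. miR-146b-5p holds 7 adenines and 5 guanines, and miR-146a-5p holds 6 of each.

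The inputs alone show where these miRNAs are found. Brown fat held the highest mean CPM of 6 of the 7 entries, and hypothalamus the highest of miR-146b-5p. Summed, the 7 entries made up 2280 ± 828 CPM in brown fat, 1112 ± 364 in liver, 968 ± 197 in hypothalamus and 233 ± 62.3 in muscle (SD, n = 5 each). In muscle and liver 1 miRNA fills much of the library, miR-1a-3p at 597968 to 633745 CPM in the muscle inputs and miR-122-5p at 371847 to 432524 CPM in the liver inputs. CPM and TMM-scaled comparisons therefore differ there. From TMM to total counts, the median log2 fold change of all 444 entries moved from 0.16 to 2.25 for brown fat over muscle and from -0.83 to -3.36 for muscle over hypothalamus.

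In mean CPM, miR-150-5p had the widest spread of the 7 across tissues. With TMM the largest difference between 2 tissues was that of miR-223-3p (5.26, brown fat over hypothalamus), which rests on only 18.83 hypothalamus input counts. The mean of miR-150-5p was 749 ± 171 CPM in brown fat, 104 ± 39.8 in hypothalamus, 34.9 ± 10.9 in muscle and 11.4 ± 10.5 in liver. Brown fat was higher than liver by 4.88 ± 0.41, than hypothalamus by 3.30 ± 0.36 and than muscle by 2.29 ± 0.34 (log2, SE, adjusted p = 4.68e-09, 2.92e-08 and 2.09e-05). These held their direction under each scaling tried. Liver was lower than muscle by -2.59 and than hypothalamus by -1.58 (adjusted p = 1.03e-05 and 0.000849). Muscle was higher than hypothalamus at 1.00 with TMM (adjusted p = 0.0102) but lower, at -1.58, by total counts (adjusted p = 0.00164).

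miR-155-5p was low outside brown fat, with means of 29.9 ± 13.1 CPM in brown fat, 8.20 ± 3.13 in muscle, 2.77 ± 1.36 in hypothalamus and 2.69 ± 2.82 in liver. Brown fat was higher than liver (2.34 ± 0.46, adjusted p = 0.000294) and than hypothalamus (3.95 ± 0.44, adjusted p = 3.27e-08). It was not called against muscle with TMM (-0.27, adjusted p = 0.547) but was higher by total counts (1.85, adjusted p = 0.000671). Liver was lower than muscle (-2.61, adjusted p = 7.04e-05). Liver was called higher than hypothalamus at 1.62 with TMM (adjusted p = 0.0145), but not by total counts (0.0024, adjusted p = 0.996) or without liver input 4 (1.05, adjusted p = 0.13). Muscle was higher than hypothalamus (4.23, adjusted p = 1.54e-08; by total counts 1.73). These values rest on few counts of miR-155-5p, 18.75 over the hypothalamus inputs and 11.0 over the liver inputs.

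The myeloid and pan-leukocyte entries had their highest mean CPM in brown fat and the next highest in liver. miR-142a-5p averaged 213 ± 166 CPM in brown fat, 69.4 ± 30.1 in liver, 26.0 ± 10.2 in hypothalamus and 14.2 ± 4.19 in muscle. miR-223-3p averaged 84.8 ± 64.9 CPM in brown fat, 17.1 ± 15.4 in liver, 6.99 ± 3.31 in muscle and 4.88 ± 5.30 in hypothalamus, and miR-142a-3p 130.5 ± 121.7 in brown fat, 43.2 ± 19.99 in liver, 17.2 ± 13.8 in hypothalamus and 13.4 ± 7.89 in muscle. Brown fat and liver were not called different for miR-142a-3p (0.27), miR-142a-5p (0.31) or miR-223-3p (1.13) with TMM (adjusted p = 0.732, 0.498 and 0.0809). With the mouse as a block these values turned to -1.01, -0.48 and -0.28, and by total counts all 3 were called higher in brown fat (1.61, 1.62 and 2.36). miR-223-3p was called higher in brown fat than in liver without brown fat input 3 (1.33, adjusted p = 0.04695) or liver input 4 (1.60, adjusted p = 0.0204).

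Against muscle, miR-142a-5p was higher in brown fat (1.69 ± 0.36, adjusted p = 0.000703) and in liver (1.38 ± 0.36, adjusted p = 0.0031). miR-223-3p was higher in brown fat than in muscle at 1.45 (adjusted p = 0.024), a call that ended with RLE (1.23, adjusted p = 0.0591), with the mouse as a block (1.11, adjusted p = 0.142), by DESeq2 (1.23, adjusted p = 0.0713), without brown fat input 5 (1.04, adjusted p = 0.0982) and without muscle input 3 (1.26, adjusted p = 0.0604). miR-142a-3p was not called between brown fat and muscle with TMM (1.11, adjusted p = 0.107), but it was called by total counts (3.29, adjusted p = 8.34e-05) and without brown fat input 2 (1.34, adjusted p = 0.049). It was not called between liver and muscle either (0.84, adjusted p = 0.2), except with the mouse as a block (1.43, adjusted p = 0.0366) or by total counts (1.68, adjusted p = 0.0237). Against hypothalamus, miR-142a-3p, miR-142a-5p and miR-223-3p were higher in brown fat (3.53, 3.42 and 5.26) and in liver (3.26, 3.11 and 4.13) with each scaling. Muscle was higher than hypothalamus for all 3 with TMM (2.43, 1.73 and 3.81), but by total counts 2 of them turned to -0.12 and -0.84 and miR-223-3p was not called (1.21, adjusted p = 0.141).

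The miR-146 pair differed from the rest. miR-146a-5p averaged 890 ± 320 CPM in brown fat, 862 ± 337 in liver, 333 ± 79.0 in hypothalamus and 93.7 ± 27.3 in muscle. With TMM it was lower in brown fat than in liver (-1.24, adjusted p = 0.000351), while by total counts it was not called (0.046, adjusted p = 0.907). It was higher in brown fat than in muscle (1.08, adjusted p = 0.00151) and hypothalamus (1.73, adjusted p = 2.16e-06), and higher in liver than in muscle (2.33) and hypothalamus (2.97). Muscle over hypothalamus was 0.65 with TMM (adjusted p = 0.022; 0.54 and adjusted p = 0.0564 without hypothalamus input 2), but -1.83 by total counts. miR-146b-5p averaged 480 ± 157 CPM in hypothalamus, 183 ± 36.3 in brown fat, 105 ± 76.2 in liver and 62.0 ± 10.9 in muscle. With TMM it was called only between brown fat and hypothalamus, with brown fat lower (-0.99 ± 0.34, adjusted p = 0.0107; -0.85 and adjusted p = 0.0511 without brown fat input 3). Without liver input 4 brown fat was also called lower than liver (-0.78, adjusted p = 0.0367), and without liver input 2 liver was called lower than hypothalamus (-0.85, adjusted p = 0.0218). By total counts liver and muscle were lower than hypothalamus (-2.19 and -2.96), and brown fat was higher than muscle (1.56).

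Of the 7 entries, 2 were called higher and 1 lower in brown fat than in liver inputs, beside 44.6% called of 444 entries, 25.7% higher and 18.9% lower. For brown fat over muscle it was 4 higher and 0 lower (0 lower at an unadjusted p under 0.05 and by DESeq2), beside 40.3% called, 22.7% higher and 17.6% lower. For brown fat over hypothalamus it was 6 higher and 1 lower, beside 83.8% called, 34.7% higher and 49.1% lower. Liver over muscle gave 2 higher and 2 lower, beside 55.0% called, 27.3% higher and 27.7% lower. Liver over hypothalamus gave 5 higher and 1 lower, beside 80.4% called, 32% higher and 48.4% lower, and muscle over hypothalamus gave 6 higher and 0 lower (0 lower at an unadjusted p under 0.05 and by DESeq2), beside 82.9% called, 31.1% higher and 51.8% lower. Without hypothalamus input 4, no call of these entries against the hypothalamus inputs changed. The all-entry split depended on scaling. With TMM it was 114 higher and 84 lower for brown fat over liver, and 284 and 25 by total counts. For brown fat over muscle it was 101 and 78, against 364 and 7, and for liver over muscle 121 and 123, against 218 and 57. For liver over hypothalamus 215 of 357 calls were lower with TMM, against 58 higher and 305 lower by total counts, and for muscle over hypothalamus it was 138 and 230, against 38 and 358.

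Whether the IP change differed between brown fat, where this Cre is chiefly active, and each other tissue was tested as an interaction. Against liver, 0 of the 7 entries were called by edgeR, with 0 at an unadjusted p under 0.05 and 0 by DESeq2, beside 9.09% of 308 entries (8.77% higher and 0.325% lower). Against muscle it was again 0 of 7, with 0 unadjusted and 0 by DESeq2, beside 20.1% of 324 entries (12.0% higher and 8.02% lower). miR-223-3p, miR-150-5p and miR-155-5p were too low to be tested within liver, and miR-223-3p within muscle. The SE was 5.51 for miR-142a-3p, 4.74 for miR-223-3p and 3.32 for miR-155-5p against liver. Against muscle it was 6.10 for miR-142a-3p and 3.43 for miR-142a-5p. For such entries the lack of a call gives no measure of likeness between the tissues. Against hypothalamus, 3 of 7 were called, all with a lower IP change in brown fat, beside 35.5% of 422 entries (2.37% higher and 33.2% lower) and a median of -1.30 over all entries. They were miR-146a-5p (-4.53 ± 0.59, adjusted p = 3.26e-06), miR-150-5p (-2.99 ± 0.58, adjusted p = 0.000326) and miR-142a-5p (-3.26 ± 0.98, adjusted p = 0.0141). miR-142a-5p was too low to be tested within hypothalamus and entered this fit through its brown fat counts, so its value gives no measure of a difference.

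The interaction values against hypothalamus carry a shift common to most entries. Over the 205 entries tested in both tissues and in the interaction, the brown fat change minus the hypothalamus change had a median of 0.71 from the separate fits, while the interaction had a median of -1.06. The interaction lay below the difference of the separate fits by a median of -1.79, with quartiles of -1.88 and -1.74. From the separate fits the difference was -2.71 for miR-146a-5p, -1.13 for miR-150-5p and 0.69 for miR-146b-5p, with no test. The shift was 0.40 against liver and -0.26 against muscle.

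The calls against hypothalamus also rested on the whole set of libraries. miR-150-5p and miR-142a-5p were each called in 3 of 20 fits that left out 1 library, namely brown fat input 4, brown fat IP 4 or hypothalamus input 3. In the other 17 their values ran up to 0.81 (without hypothalamus IP 3) and 0.49 (without brown fat input 5). miR-146a-5p stayed negative in all 20, from -4.52 to -1.14, and was called in 7. miR-146b-5p, at -1.05 (adjusted p = 0.105) with all libraries, turned positive in 17 of the 20, up to 2.40, and was called higher in those 17. Leaving out hypothalamus input 4 gave -1.73 for miR-146a-5p (adjusted p = 0.0497), 0.038 for miR-150-5p, -0.29 for miR-142a-5p and 2.06 for miR-146b-5p (adjusted p = 0.00377). Without liver IP 4, again 0 of the 7 entries were called between brown fat and liver. By total counts miR-146a-5p was -3.20 (adjusted p = 0.00101) and the other two called entries were not called. All-entry calls ran 10 higher and 140 lower with TMM, 25 and 37 with RLE, and 22 and 14 by total counts.

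The entries closest to each member over the 20 inputs were found by Pearson correlation of log2(CPM + 1) among 392 entries. They describe tissue patterns in shared libraries. For miR-142a-3p they were miR-142b (r = 1.0), miR-142a-5p (0.935) and miR-19a-3p (0.919). For miR-223-3p they were miR-193a-5p (0.932), miR-10a-3p (0.93) and miR-365-3p (0.927), and for miR-150-5p miR-193b-3p (0.928), miR-708-5p (0.92) and miR-30e-5p (0.903). miR-155-5p was closest to miR-143-5p (0.933), miR-145a-5p (0.93) and miR-322-5p (0.902). miR-142a-5p was closest to miR-15b-5p (0.953), miR-19b-3p (0.945) and miR-455-3p (0.937). miR-146a-5p was closest to miR-203-3p (0.931), miR-16-1-3p (0.927) and miR-455-5p (0.924), and miR-146b-5p to miR-125a-3p (0.97), miR-379-3p (0.923) and miR-134-5p (0.909). Among the members themselves, miR-142a-3p and miR-223-3p gave r = 0.895, miR-150-5p and miR-155-5p 0.798, and miR-146a-5p and miR-146b-5p only 0.23.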

How the data were processed

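The deposited table holds expected counts of 1894 mature miRNA entries in 40 libraries. They are not normalized and need not be whole (18.9% of positive values are, within 0.001). Small RNA libraries were made with a NEBNext kit, per the labels' protocols. The submitters' processing notes name fastp, STAR, featureCounts and build mm10, without versions. How reads that fit several entries or both strands were shared out is not given in the sources used here. Here counts were rounded, which changed library totals by at most 0.127%. Each comparison was fitted with edgeR 4.0.16 (R 4.3.3): TMM scaling, its filter on low counts, quasi-likelihood test, Benjamini-Hochberg adjustment over all entries tested, threshold 0.05. IP against input used the 10 libraries of a tissue, the input comparisons all 20 inputs, and the interactions the 20 libraries of 2 tissues. DESeq2 1.42.0, RLE and total-count scaling, no filter, the mouse as a block and leaving out each library were alternatives. The ratio tests used counts plus 0.5, in libraries with at least 10 counts over both entries, with exact permutation. The fits were tested on simulated data.

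19 of the 20 equally numbered input and IP pairs come from the same mouse, per the labels. Pairing was therefore tried as an alternative in the edgeR fits, but not in the ratio tests. The deviations of same-mouse libraries correlated between -0.082 and 0.507 (median 0.097, 568 entries). Libraries of different mice are taken as replicates, while tissues of 1 mouse are not independent. The members, gene lists and tests were chosen with earlier results of these data known. All 7 members were named in every comparison, and further entries only from set lists or as the 3 closest by correlation. Bounds for groups near 0 use 3 counts over the group.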

Additional observations from a re-analysis of the deposited data

Results flagged for a closer look

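Several single libraries stood far from the other 4 of their group in CPM, by Dixon's 95% criterion. Chance flags about 1 in 20 groups, but not where the other values are at or near 0, since there any fraction of a count is flagged. For miR-142a-3p these were liver IP 3 (0.563), muscle IP 1 (0.271) and hypothalamus IP 3 (1.16), and for miR-142a-5p muscle IP 3 (0.9504). For miR-223-3p they were brown fat input 5 (197.5) and muscle IP 4 (2.86). For miR-155-5p they were brown fat IP 2 (6.27, low), liver IP 5 (2.41) and hypothalamus IP 3 (9.27). Apart from brown fat input 5, each of these values rests on at most 2 counts. miR-146a-5p was high in liver IP 4 (796.4), on 9.50 counts, and miR-146b-5p was low in hypothalamus IP 2 (65.5), on 6.58 counts. Hypothalamus IP 2 was also the lowest of its group for miR-146a-5p.

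edgeR's interaction test called the IP change lower in brown fat than in hypothalamus for miR-142a-5p (-3.26), miR-150-5p (-2.99) and miR-146a-5p (-4.53). These values hold a median shift of -1.79 common to most entries, miR-142a-5p was too low to be tested within hypothalamus, and leaving out single libraries ended most of the calls, as given above. They are therefore not read as differences between the tissues.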

How the results depend on the processing

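Of the values for single members outside the leave-one-out fits, 423 kept direction and call, 28 gained a call, 16 lost one and 31 turned. The cause was not tested. Turned by DESeq2 were the differences of IP change between brown fat and liver for miR-142a-3p (-1.97), miR-223-3p (-1.90), miR-155-5p (-0.21), miR-146a-5p (-0.073) and miR-150-5p (-0.019), between brown fat and muscle for miR-142a-3p (-1.66), and between brown fat and hypothalamus for miR-146b-5p (0.054). RLE turned those between brown fat and hypothalamus for miR-142a-3p (0.14) and miR-146b-5p (0.017) and between brown fat and liver for miR-146a-5p (-0.082). No filter turned those between brown fat and liver for miR-146a-5p (-0.26), miR-150-5p (-0.10) and miR-146b-5p (-0.074). Adding miR-142b turned miR-142a-3p between brown fat and hypothalamus (0.39), an alternative chosen after seeing the data. The mouse as a block (pairing by mouse) turned it to 0.31, and turned brown fat over liver inputs for miR-142a-3p (-1.01), miR-142a-5p (-0.48) and miR-223-3p (-0.28). With the block 102 entries, against 198, were called between brown fat and liver inputs, and 1 member, against 2, in liver IPs. Total counts turned the brown fat IP changes of miR-150-5p (-0.66) and miR-155-5p (-0.48), the brown fat and hypothalamus differences of miR-142a-3p (0.53) and miR-146b-5p (0.37), brown fat over liver inputs for miR-146a-5p (0.046) and miR-146b-5p (0.79), brown fat over muscle for miR-155-5p (1.85) and miR-146b-5p (1.56), liver over muscle for miR-146b-5p (0.77), and muscle over hypothalamus for miR-142a-3p (-0.12), miR-142a-5p (-0.84), miR-150-5p (-1.58) and miR-146a-5p (-1.83).

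Members called in brown fat IPs were 3 with TMM, 5 by DESeq2, RLE or no filter and 6 by total counts. In liver IPs they were 4 by DESeq2 and total counts and 5 without a filter. By total counts they were 1 for the brown fat and hypothalamus difference, 5 for brown fat over liver inputs and 7 for brown fat over muscle. Entries called without a filter were 396 in brown fat IPs (239 with it), 234 in liver (151), 345 in muscle (228), 383 in hypothalamus (203) and 592 in brown fat over hypothalamus inputs (372). For the brown fat and hypothalamus difference they were 93 without a filter, 92 by DESeq2, 62 by RLE and 36 by total counts (150 in the edgeR fit with TMM), and for brown fat and liver 5 without a filter, 5 by RLE and 43 by total counts (28). Total counts gave 309 (198) for brown fat over liver inputs and 371 (179) over muscle.

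Leaving out 1 library gave 3 to 5 members called in brown fat IPs, 1 to 3 in liver, 2 to 5 in muscle, 1 to 3 for the brown fat and hypothalamus difference and 3 to 5 for brown fat over liver inputs, and 1 to 32 entries for the brown fat and liver difference. Values that turned ran as follows. In muscle IPs, miR-146a-5p ran from -0.43 to 0.044. Between brown fat and hypothalamus, miR-142a-3p ran from -1.75 to 1.89, miR-142a-5p from -3.44 to 0.49, miR-223-3p from -2.76 to 1.08, miR-150-5p from -3.10 to 0.81, miR-155-5p from -1.95 to 4.63 and miR-146b-5p from -1.04 to 2.40. Between brown fat and liver, miR-150-5p ran from -0.52 to 1.80, miR-146a-5p from -0.22 to 0.56 and miR-146b-5p from -0.37 to 0.68, and between brown fat and muscle miR-223-3p ran from -1.43 to 3.89. In inputs, brown fat over liver ran from -0.20 to 0.49 for miR-142a-3p and from -0.070 to 0.50 for miR-142a-5p, and liver over muscle from -0.14 to 0.51 for miR-223-3p and from -0.44 to 0.20 for miR-146b-5p. The log2 ratio of miR-146b-5p to miR-146a-5p differed by -0.30 to 0.022 in brown fat and by -0.23 to 0.55 in liver. A pseudocount of 1 or a minimum of 20 counts changed no ratio call. Depth limits miR-142, miR-223 and miR-155 outside brown fat, where IP groups held under 10 counts, and in brown fat miR-142a-3p (2.27 IP counts) and miR-223-3p (7.0). It also limits miR-223-3p in the hypothalamus inputs (18.83 counts) and miR-155-5p in the hypothalamus (18.75) and liver inputs (11.0).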

Other observations

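In the miR-181 family, the ratio of paralogs in the pulled-down RNA also stood apart from total RNA, a comparison chosen after the values were seen and given with no test. The mature sequences are RefSeq's on GRCm38.p6, with the shared seed in capitals.
mmu-miR-181a-5p: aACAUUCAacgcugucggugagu
mmu-miR-181b-5p: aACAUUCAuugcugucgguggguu
Counted from the 5′ end, miR-181b-5p differs from miR-181a-5p by A9U, C10U and A21G over the 23 bases compared. The ratio of miR-181b-5p to miR-181a-5p ran from 0.765 to 1.21 in the brown fat IPs, against 0.117 to 0.198 in the inputs. It ran from 1.34 to 2.20 in the muscle IPs, against 0.240 to 0.323 in the inputs. In hypothalamus it ran from 0.548 to 1.57 in the IPs, against 0.14 to 0.247 in the inputs. In these 3 tissues no IP overlapped an input. The liver IPs held 7.5 counts of miR-181b-5p and 21.5 of miR-181a-5p in all, too few to compare.

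The 2 arms of the miR-342 hairpin, which is expressed in B cells and in brain, also changed places. miR-342-5p exceeded miR-342-3p in every brown fat IP, with a ratio of 1.95 to 6.5, against 0.0097 to 0.129 in the inputs. In hypothalamus the ratio ran from 2.74 to 26.0 in the IPs, against 0.129 to 0.661 in the inputs. The muscle and liver IPs held only 3.17 and 1.5 counts of miR-342-3p in all, too few for a ratio, and in liver the IPs (1.0 to 8.0) and inputs (0.186 to 2.12) overlapped. By edgeR, miR-342-5p was higher in the IPs of brown fat (4.599, adjusted p = 3.29e-09), muscle (4.396, adjusted p = 1.82e-14) and hypothalamus (4.93, adjusted p = 1.44e-06), and it was called higher with RLE and total-count scaling too.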
